A study of Mus musculus with 121 samples.

Results

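Gonadal adipose tissue of knockout (KO) and wild-type (WT) mice kept on chow was compared by RNA sequencing. The samples were those that the labels give as gonadal adipose tissue, chow and KO or WT and that have a column in the gonadal count table: 9 samples (5 KO and 4 WT) of 45 gonadal samples, and of 120 samples with a column in the series. They are called KO 1 to KO 5 and WT 2 to WT 5 by the replicate numbers of the labels, and the labelled chow WT 1 was not analysed here. The 9 mice were C57BL/6 animals and ate standard chow, with 10% of its calories from lipid, for 18 weeks from 8 weeks of age, so in the labels they differ by genotype alone. The labels write the targeted gene as PEP, which what is known of the study identifies as Pepd. The sources used here do not give the construction of the knockout, the cells in which it acts or the sex of the mice. Heterozygous (HET) mice on chow (n = 8) and KO (n = 9), WT (n = 8) and HET (n = 11) mice on a high-fat diet (HFD) entered the same model and serve as reference levels.

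Pepd encodes prolidase, a cytosolic peptidase specific for dipeptides with proline or hydroxyproline at their end. Such dipeptides are left over when collagen is broken down, and prolidase returns their proline to the cell. Gonadal fat is a visceral depot that lies beside the reproductive tract. It is made of lipid-storing adipocytes and of vessels, fibroblasts, a mesothelial cover and resident immune cells, and it secretes hormones such as leptin and adiponectin. In a bulk sample, fewer cells of a type and less RNA per cell cannot be told apart.

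Several of the 9 libraries stood apart from the rest, which bears on every result below. Total counts ran from 4236655 in KO 4 to 6583398 in KO 1 among KO, and from 5646696 to 6637417 among WT. Levels are given as CPM, counts scaled to the size of the library. The summed level of 40 measured epididymis markers was 19400 CPM in KO 1 and 21700 CPM in WT 2, against 3.62 to 29.7 CPM in the other 7 libraries, so each comparison was also made without KO 1 and WT 2. Testis and sperm markers summed to 909 CPM in WT 3 and 663 CPM in WT 2, against 84.2 to 283 CPM elsewhere. The adipocyte hormone Adipoq was at 467 to 4660 CPM in all 9 libraries, and 30 mature adipocyte markers summed to 62300 to 91300 CPM in WT. That sum was 93600 CPM in KO 2 and 105000 CPM in KO 3, but 29500 CPM in KO 1, 26700 CPM in KO 5 and 14200 CPM in KO 4.

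The targeted gene separated the genotypes in all 9 libraries. Pepd (ENSMUSG00000063931, chromosome 7, 34912379 to 35044708, plus strand, GRCm38) was at 13.9, 24.6, 33.6, 6.48 and 9.02 CPM in KO 1 to KO 5. In WT 2 to WT 5 it was at 56.5, 102, 84 and 89.1 CPM. Every KO library lay below every WT library. The highest KO value was that of KO 3 and the lowest were those of KO 4 and KO 5. KO libraries held 4.69-fold less than WT (log2 -2.23 ± 0.28 SE, edgeR adjusted p = 1.1e-05), and 4.89-fold less without KO 1 and WT 2 (edgeR adjusted p = 0.00012). HET libraries on chow lay between them, from 43.8 to 68.9 CPM with a median of 57.6 CPM, and overlapped WT 2. On HFD, KO libraries ranged from 15.4 to 35.8 CPM. The counts are not resolved by exon, so they do not show which part of the transcript the reads in KO libraries came from.

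**Figure D1:**
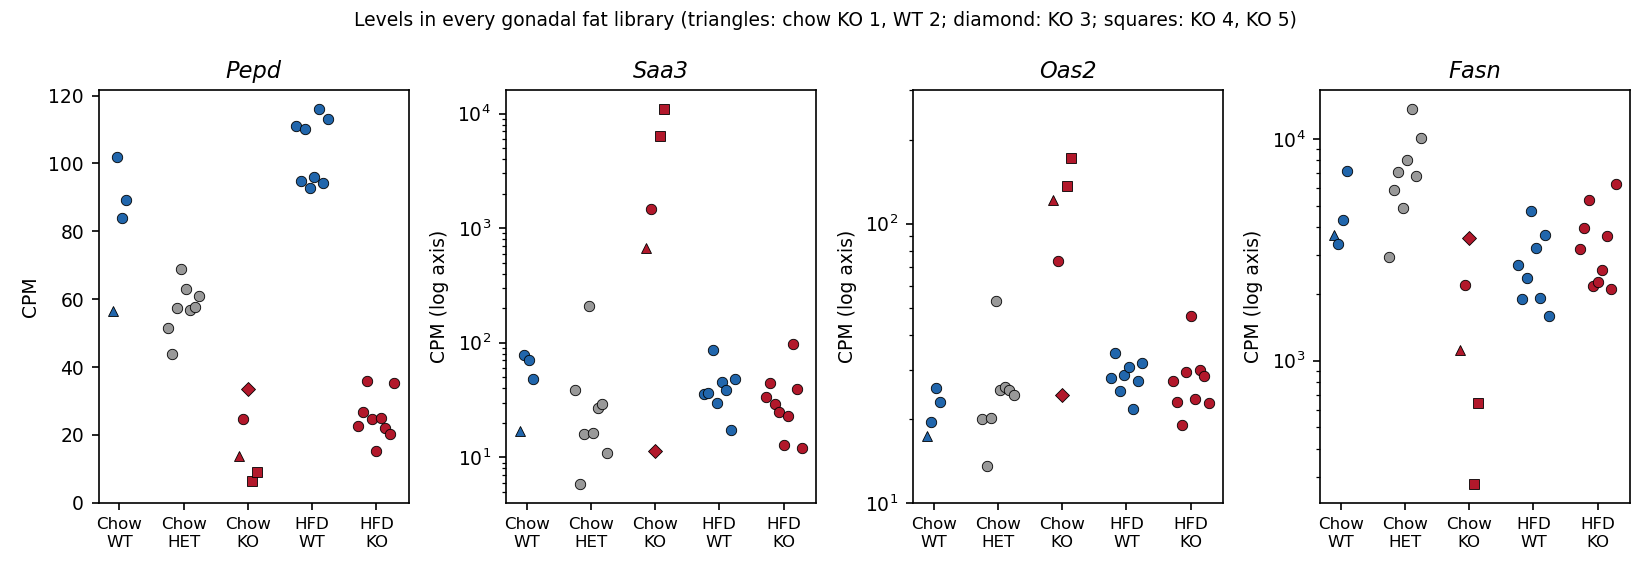
Level in CPM (vertical axis, linear for Pepd and logarithmic for Saa3, Oas2 and Fasn) of each library in 5 groups (horizontal axis), 1 point a library, with chow KO 1 and WT 2 as triangles, KO 3 as a diamond and KO 4 and KO 5 as squares. Pepd in chow KO (6.48 to 33.6 CPM) lies below all chow WT libraries (56.5 to 102 CPM), while Saa3 reaches 10900 CPM in KO 5 and is at 11.4 CPM in KO 3.

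Among the related peptidases that also act next to proline, Prep fell and Dpp4 and Fap did not pass the test. Prep, prolyl endopeptidase, was at 38.3 ± 7.64 CPM in KO (SD, n = 5) against 53.1 ± 11.8 in WT (n = 4), 1.37-fold lower with 4 of 5 KO libraries below every WT library (edgeR adjusted p = 0.0047). Xpnpep1, an aminopeptidase that removes residues before proline, was 1.22-fold lower (edgeR adjusted p = 0.023), and without KO 4, WT 2, WT 3 or WT 5 its adjusted p was 0.056 to 0.13. Dpp4 was at 118 CPM in KO 1 and 100 CPM in WT 2 and at 20.7 to 54 CPM elsewhere (edgeR adjusted p = 0.74). Fap, a fibroblast peptidase, was at 12.9 ± 4.74 CPM in KO and 19.8 ± 10.2 in WT (edgeR adjusted p = 0.12). Of 12 tested genes of a proline metabolism list, 2 rose and 0 fell, where 8.85% and 6.14% of all genes tested did. The 2 were P4ha1 (1.58-fold, edgeR adjusted p = 0.04) and Pycr1, which makes proline (1.64-fold, edgeR adjusted p = 0.041). P4ha1 is a collagen prolyl hydroxylase, which the list includes although it acts on proline within collagen. Neither passed without KO 1 and WT 2 (edgeR adjusted p = 0.083 and 0.14), nor without KO 4, KO 5 or any single WT library.

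Over all genes, 1287 of 14536 tested were higher in KO (8.85%) and 893 were lower (6.14%), at an edgeR adjusted p under 0.05. These shares are the background for the counts given for each gene list. Without KO 1 and WT 2, 938 of 14592 were higher (6.43%) and 651 lower (4.46%). The comparisons shared 1323 called genes, all in the same direction, which is 60.7% of the first set and 83.3% of the second. In 180 genes (1.24% of those tested) every KO library lay above every WT library, and in 83 genes (0.571%) every KO library lay below. These counts rest on a spread estimated over all 6 gonadal groups. When only chow KO and WT were fitted, edgeR called 0 genes, with 1547 at an unadjusted p under 0.05, and DESeq2 called 380. In that edgeR fit no gene named in this text was called, Pepd included (edgeR adjusted p = 0.32), and some, such as Cck and Gpr50, were not tested. DESeq2 on the same groups did call Pepd (DESeq2 adjusted p = 6e-04).

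The KO libraries took unequal parts in these differences. Of the 1287 higher genes, KO 4 lay above every WT library in 98.4%, KO 5 in 97.1%, KO 1 in 81.5%, KO 2 in 69.2% and KO 3 in 14.1%. Of the 893 lower genes, KO 4 lay below every WT library in 90.8% and KO 3 in 14.1%. Over all genes tested, KO 3 lay above every WT library in 13.4% and below in 10.7%, against 14.1% in both called sets. The same shares over all genes were 29.9% and 31.9% in KO 4 and 26.9% and 30.4% in KO 5. They were 25% and 26.2% in KO 1 and 18.3% and 18.1% in KO 2. Without KO 4 and KO 5 the test called 55 genes, 48 higher and 7 lower, of which 54 were among the 2180. Among the gene lists described below, that refit called 9 interferon-stimulated genes higher and 1 gene each of the macrophage, class II, B cell, plasma cell and fibroblast lists, and in the other lists it called Pepd alone. Leaving out single libraries gave 774 genes (without KO 4) to 4210 (without KO 3), with 1065 without KO 5 and 1250 without WT 5. The 4210 were 2089 higher and 2121 lower of 14523 tested, which is the background for the list counts without KO 3. KO 4, KO 5, WT 4 and WT 5 are also the mice with the higher numbers in the labels, 450 and above. Within those 4 libraries 2955 genes were called, and within the 5 mice of lower number 0, with 460 at an unadjusted p under 0.05. The latter are KO 1, KO 2, KO 3, WT 2 and WT 3. They include both libraries rich in epididymis markers and WT 3 with its sperm markers, so 0 calls do not show that an effect was absent.

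**Figure D2:**
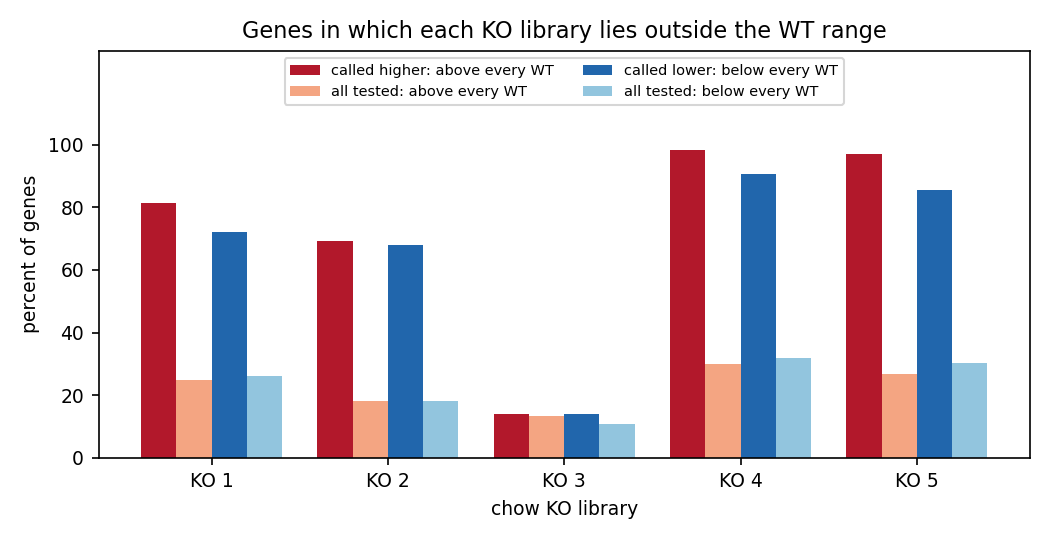
Percent of genes (vertical axis) in which each chow KO library (horizontal axis) lies above or below all 4 chow WT libraries, for the genes called higher, the genes called lower and all genes tested. KO 4 and KO 5 stand outside the WT range in most called genes, while KO 3 does so in 14.1% of the higher and 14.1% of the lower genes.

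Some acute-phase genes rose, among them serum amyloids. Saa3 (ENSMUSG00000040026, chromosome 7, 46711998 to 46715700, minus strand), a serum amyloid made in inflamed fat, was at 676, 1480, 11.4, 6320 and 10900 CPM in KO 1 to KO 5. The WT libraries held 17, 77.5, 70.7 and 48.6 CPM. KO 1, 2, 4 and 5 lay above every WT library and KO 3 below them all. The fitted change was 74.2-fold (log2 6.21 ± 1.15, edgeR adjusted p = 0.00053). Without KO 4 and KO 5 its log2 change was 3.77 (edgeR adjusted p = 0.071). The liver-type serum amyloids Saa1 and Saa2, whose reads may be split between near-identical copies, were 81.9-fold and 83.3-fold higher (edgeR adjusted p = 0.0052 and 0.023). Their levels were far lower, at most 226 and 49 CPM, and Saa2 missed the threshold without KO 5, WT 3 or WT 5 (edgeR adjusted p = 0.057, 0.058 and 0.073). C3, the central complement protein, was 3.95-fold higher, with means of 8000 ± 6450 CPM in KO (SD, n = 5) and 2070 ± 660 CPM in WT (n = 4) (edgeR adjusted p = 0.00061). Lcn2, an iron-trapping protein of neutrophils and fat, was 18.2-fold higher (edgeR adjusted p = 0.013), and not called without KO 5 or WT 5 (edgeR adjusted p = 0.056 and 0.052). Of 27 acute-phase genes tested 6 rose and 1 fell, with a median log2 change of 1.25 against -0.030 over all genes. Without KO 5 or WT 5, 3 rose, and without KO 4 and KO 5, 0 did. The summed level overlapped between the groups, with KO 1 at 15800 CPM below WT 3 at 17700 CPM and KO 3 lowest of KO at 9170 CPM.

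The summed level of neutrophil genes was highest in KO 4 and KO 5. S100a9 (ENSMUSG00000056071, chromosome 3, 90692632 to 90695721, minus strand), a calcium-binding protein abundant in neutrophils, was at 8.72, 13, 0.652, 202 and 233 CPM in KO 1 to KO 5. It was at 2.09, 0.446, 1.04 and 1.15 CPM in WT. KO 4 and KO 5 stood far above the other 7 libraries, and KO 3 lay within the WT range. The change was 77.7-fold (log2 6.28 ± 0.94, edgeR adjusted p = 0.00011) and 129-fold without KO 1 and WT 2 (edgeR adjusted p = 0.00026). Cxcr2, a chemokine receptor of neutrophils, was at 3.04, 2.27, 0, 6.68 and 52.2 CPM in KO 1 to KO 5, against 0.149 to 0.174 CPM in WT (edgeR adjusted p = 0.00064). It passed the expression filter only through its high KO libraries, and was not tested without KO 1, KO 2, KO 4 or KO 5. Its p-value is therefore no separate support. Csf3r, the receptor for the neutrophil growth factor, was 7.7-fold higher (edgeR adjusted p = 0.00042). Of 14 neutrophil genes measured 8 passed the expression filter and were tested. Of these 6 rose and 0 fell, 4 without KO 1 and WT 2, 3 without KO 4 or KO 5, and 0 without KO 4 and KO 5. The number tested moved with the libraries fitted, at 7 without KO 4 and KO 5 and 14 within mice numbered 450 and above. Genes can thus enter this count only because KO levels are high, so the share called is no separate support. The neutrophil list summed to 688 and 958 CPM in KO 4 and KO 5 and to 264 CPM in WT 2, against 43 to 119 CPM in the other libraries.

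Several chemokines and cytokines rose, with KO 4 and KO 5 highest in those given here. Cxcl1, which draws neutrophils, was at 5.68, 9.55, 1.14, 52 and 44.9 CPM in KO 1 to KO 5 and at 1.57 to 3.62 CPM in WT, 9.52-fold higher (edgeR adjusted p = 0.00091). Cxcl5, of the same class, was 64.8-fold higher (edgeR adjusted p = 0.0011) with 38.1 and 44.6 CPM in KO 4 and KO 5. It passed the expression filter only with all KO libraries present, so its p-value is no separate support. Il1b, the inflammatory cytokine, was 18-fold higher (edgeR adjusted p = 0.00043), with 67.2 and 80 CPM in KO 4 and KO 5 and 0.489 CPM in KO 3. Il33, an alarm cytokine of stromal and mesothelial cells, was at 46.4, 30.1, 11.9, 175 and 162 CPM against 16.7, 8.77, 9.32 and 8.24 CPM in WT, 7.98-fold higher (edgeR adjusted p = 2e-04). Socs3, a feedback inhibitor of cytokine signalling, was 6.88-fold higher (edgeR adjusted p = 0.00055). Of 26 genes of the cytokine list 11 rose and 1 fell, and 7 rose without KO 5 or WT 5, and 0 without KO 4 and KO 5. Among the 12 genes with the highest fold change were also Serpinb2, a protease inhibitor (40.9-fold, 5 of 5 KO libraries above WT, edgeR adjusted p = 2e-04), Acod1, which makes itaconate in activated macrophages (34.5-fold, edgeR adjusted p = 0.0023), and Chil1, a chitinase-like protein (33.5-fold, edgeR adjusted p = 0.0046).

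**Figure D3:**
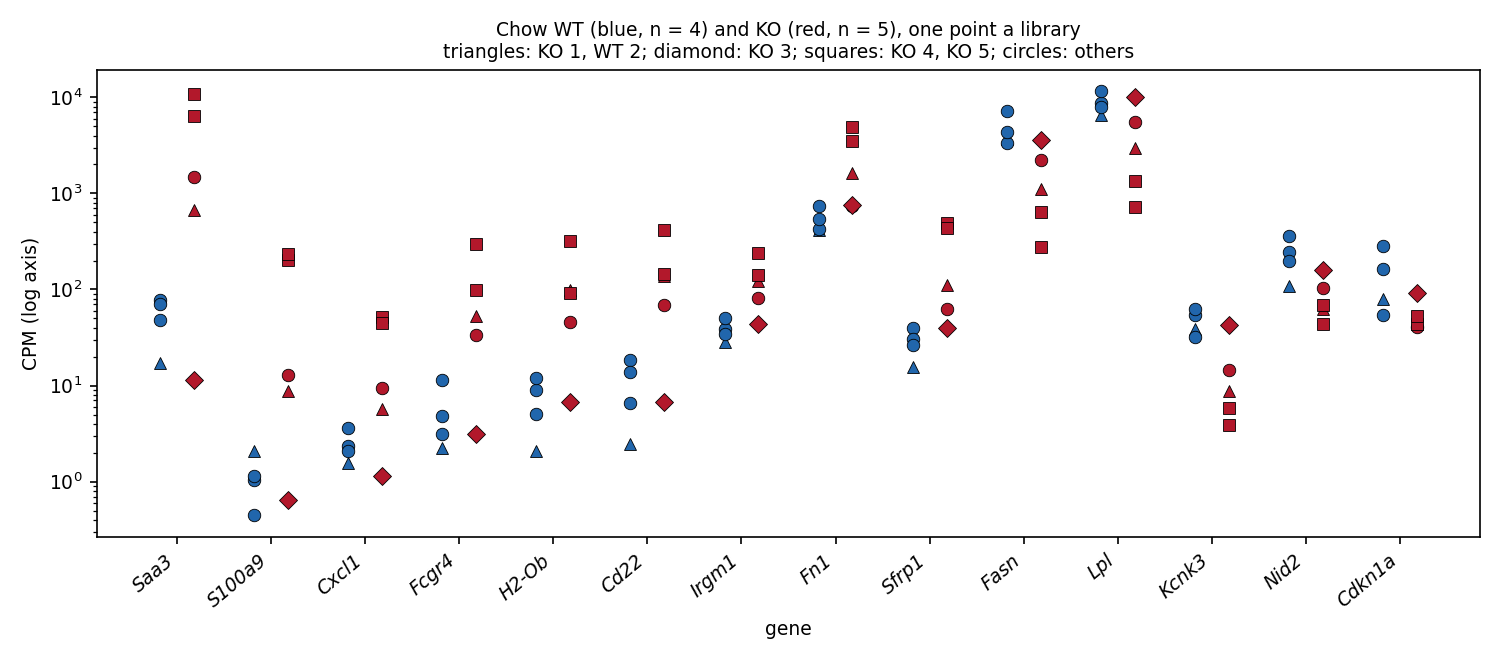
Level in CPM (vertical axis, logarithmic) of 14 genes in each chow WT library (blue, n = 4) and chow KO library (red, n = 5), 1 point a library. For Saa3, S100a9, Cxcl1, Fcgr4, H2-Ob and Cd22 the KO 3 diamond lies within or below the WT points, and for Saa3, S100a9 and Cxcl1 the KO 4 and KO 5 squares are the highest points.

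Many macrophage genes rose, and no gene of the lipid-associated macrophage list did. Of 33 macrophage genes tested 15 rose and 0 fell, with a median log2 change of 1.17. The count was 9 without KO 1 and WT 2, 6 without KO 5, 10 without WT 5, and 1 without KO 4 and KO 5. Fcgr4, an activating antibody receptor of monocytes and macrophages, was at 53.2, 33.7, 3.1, 99.8 and 300 CPM in KO 1 to KO 5 and at 2.26 to 11.3 CPM in WT, 18.5-fold higher (edgeR adjusted p = 0.00089). Ly86, a partner of a toll-like receptor homologue, was 4.96-fold higher (edgeR adjusted p = 0.00053). Fcna, a ficolin of resident macrophages, was at 198, 123, 103, 125 and 308 CPM in KO and at 60.7, 49.7, 76.6 and 35.9 CPM in WT. Here KO 3 too lay above every WT library. Fcna was 3.1-fold higher (edgeR adjusted p = 0.00036) and was the macrophage gene still called without KO 4 and KO 5 (edgeR adjusted p = 0.027). Of 22 genes of lipid-associated macrophages, the cells that gather around dying fat cells, 0 rose and 3 fell, with a median of -0.58. They included Dcstamp, a cell fusion protein (4.97-fold lower, edgeR adjusted p = 0.0081), which was at 8.92 CPM in WT 3 and 5.6 CPM in WT 5 and was not called without WT 3 (edgeR adjusted p = 0.075). The number of that list that fell was 0 without WT 3, 1 without KO 4, KO 5 or WT 5, and 8 without KO 3 or WT 4.

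Antigen-presentation genes of both classes rose. Of 15 class II genes 11 rose and 0 fell, with a median log2 change of 1.59, and 10 rose without KO 1 and WT 2. Of 16 class I genes 14 rose and 0 fell, and 12 rose without KO 1 and WT 2. H2-DMb2 (ENSMUSG00000037548, chromosome 17, 34143307 to 34151555, plus strand), of the complex that loads peptides onto class II, was at 53.1, 30.1, 7.33, 226 and 81 CPM in KO 1 to KO 5. WT libraries held 3.13, 11.5, 12.1 and 7.91 CPM, so that KO 3 alone lay among them. It was 9.35-fold higher (log2 3.22 ± 0.58, edgeR adjusted p = 0.00044). H2-Ob and H2-Oa, the chains of a modulator of that loading in B cells, were 16.4-fold and 15.3-fold higher (edgeR adjusted p = 0.00043 and 0.00074). In class I presentation, Tap1, a peptide transporter, was 3.24-fold higher (edgeR adjusted p = 0.00078). H2-Q6 and H2-M3, non-classical class I molecules, were 3.45-fold and 3.14-fold higher (edgeR adjusted p = 0.00053 and 0.00044). Counts of these polymorphic, closely related genes may hold misassigned reads. Without KO 4 and KO 5, 1 class II and 0 class I genes passed.

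B cell genes had the highest median of the lists plotted. All but 1 of 19 tested passed, 18 higher and 0 lower, with a median log2 change of 4.01, and 16 to 18 were higher without each single library, but 1 without KO 4 and KO 5. Cd22, a B cell co-receptor, was at 137, 69, 6.68, 417 and 145 CPM in KO 1 to KO 5 and at 2.44, 18.6, 14 and 6.59 CPM in WT, 15.1-fold higher (edgeR adjusted p = 0.00078). KO 3 again lay inside the WT range. Ly6d, a marker of early B lineage cells, was 34.9-fold higher (edgeR adjusted p = 0.00083), and Bank1, an adaptor of the B cell receptor, 9.93-fold (edgeR adjusted p = 0.00055). Of 16 plasma cell genes 10 rose, 4 without KO 1 and WT 2, 1 without KO 4 and KO 5, and 2, 4, 5, 4 and 3 without KO 4, KO 5, WT 2, WT 3 and WT 5. Igha, the constant region of IgA, was at 1120, 21.4, 48.2, 720 and 549 CPM in KO and at 5.93 to 27.5 CPM in WT, 28.9-fold higher (edgeR adjusted p = 0.00071). It was chosen after its values were seen, and KO 2 lay among the WT libraries. Pou2af1, a B cell transcriptional co-activator, was 13.2-fold higher (edgeR adjusted p = 0.0056). Of 28 T and NK cell genes 5 rose, 0 without KO 4 or without KO 4 and KO 5, 1 without KO 5 or WT 2, 2 without WT 3, WT 4 or WT 5, and 8 and 11 without KO 2 and KO 3. Cd2, a T and NK cell adhesion molecule, was 3.96-fold higher (edgeR adjusted p = 0.0043, and 0.055 without KO 4).

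Interferon-stimulated genes rose whichever single library was left out. Of 38 tested 31 rose and 0 fell, with a median log2 change of 1.24, and 27 to 33 rose when each library was left out in turn. Without KO 1 and WT 2, 28 rose, and without KO 4 and KO 5, 9 did. Oas2 (ENSMUSG00000032690, chromosome 5, 120730333 to 120749853, minus strand), an antiviral RNA sensor, was at 122, 73.3, 24.4, 136 and 172 CPM in KO 1 to KO 5. It was at 17.4, 19.5, 25.7 and 22.9 CPM in WT. It was 5.01-fold higher (log2 2.32 ± 0.34, edgeR adjusted p = 0.00011) and 4.57-fold without KO 1 and WT 2 (edgeR adjusted p = 0.0024). Without KO 4 and KO 5 it was still called (log2 1.79, edgeR adjusted p = 0.027). Oasl2, of the same family, was 3.82-fold higher (edgeR adjusted p = 0.00013). Irgm1 (ENSMUSG00000046879, chromosome 11, 48861968 to 48871683, minus strand), a GTPase that guards cells against microbes, was at 122, 81.1, 43.5, 142 and 238 CPM in KO and at 28.5, 38.8, 50.2 and 34.4 CPM in WT. It was 3.35-fold higher (edgeR adjusted p = 0.00019), with KO 3 inside the WT range. In HET libraries on chow Oas2 reached 52.9 CPM with a median of 24.9 CPM.

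Many interferon-stimulated genes carry an interferon-response element, a repeat of GAAA, just before their start. RefSeq promoter windows (GRCm38.p6) were searched on both strands over the 250 bases before each start for GAAA, any 2 bases and GAAA, which reads TTTC, 2 bases and TTTC on the other strand. Overlapping matches count separately. A match was present in 13 of the 22 higher genes with a window (59.1%), in 2 of 5 tested genes that were not called (40%), and in 936 of all 27025 genes in the table (3.46%). These letters describe the sequence and not a bound site. Shown because they are the 5 called genes of the list with the smallest adjusted p that have a match in the 130 bases before the start, the windows below run 5′ to 3′ on the gene's strand with matches in capitals. They lie at chr11:48871421-48871550 (minus strand), chr7:104465194-104465323 (minus), chr3:142559914-142560043 (plus), chr3:142530206-142530335 (plus) and chr4:156200819-156200948 (minus).
Irgm1: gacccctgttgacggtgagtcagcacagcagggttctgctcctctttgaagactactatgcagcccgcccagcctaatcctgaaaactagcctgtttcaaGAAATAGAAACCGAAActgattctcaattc
Trim30a: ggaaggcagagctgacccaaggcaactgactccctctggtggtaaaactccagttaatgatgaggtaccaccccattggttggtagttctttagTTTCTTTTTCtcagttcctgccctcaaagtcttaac
Gbp3: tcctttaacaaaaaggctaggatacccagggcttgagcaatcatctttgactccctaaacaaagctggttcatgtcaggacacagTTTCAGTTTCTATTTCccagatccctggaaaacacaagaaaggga
Gbp7: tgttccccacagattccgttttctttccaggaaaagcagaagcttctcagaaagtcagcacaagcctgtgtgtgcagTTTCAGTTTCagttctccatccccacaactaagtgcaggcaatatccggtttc
Isg15: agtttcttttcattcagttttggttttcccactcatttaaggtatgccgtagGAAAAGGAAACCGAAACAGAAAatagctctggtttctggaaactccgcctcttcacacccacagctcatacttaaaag

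In all 5 genes of these windows KO 1, KO 2, KO 4 and KO 5 lay above every WT library, and in Trim30a and Gbp7 KO 3 did too. Trim30a, a regulator of innate signalling, was at 75.3, 44.2, 27.9, 81 and 99.2 CPM in KO 1 to KO 5 and at 14.4 to 27.2 CPM in WT, 2.96-fold higher with all 5 KO libraries above WT (edgeR adjusted p = 0.00022). Gbp3 and Gbp7, guanylate-binding proteins whose reads may be shared within their family, were 3.22-fold and 2.66-fold higher (edgeR adjusted p = 0.00039 and 0.00051). Gbp7 in KO 3, at 30 CPM, lay just above the highest WT library at 29.5 CPM. Isg15, a ubiquitin-like modifier, was at 31.8, 25.6, 8.64, 21.9 and 33.2 CPM in KO and at 7.14 to 10 CPM in WT, 2.76-fold higher (edgeR adjusted p = 0.00083). The match nearest the start lies 14 bases before it in Irgm1 and 56 bases before it in Isg15, which holds 3 overlapping matches. Without KO 4 and KO 5, Irgm1, Trim30a, Gbp3 and Isg15 were still called and Gbp7 was not (edgeR adjusted p = 0.04, 0.043, 0.049, 0.049 and 0.071).

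**Figure D4:**
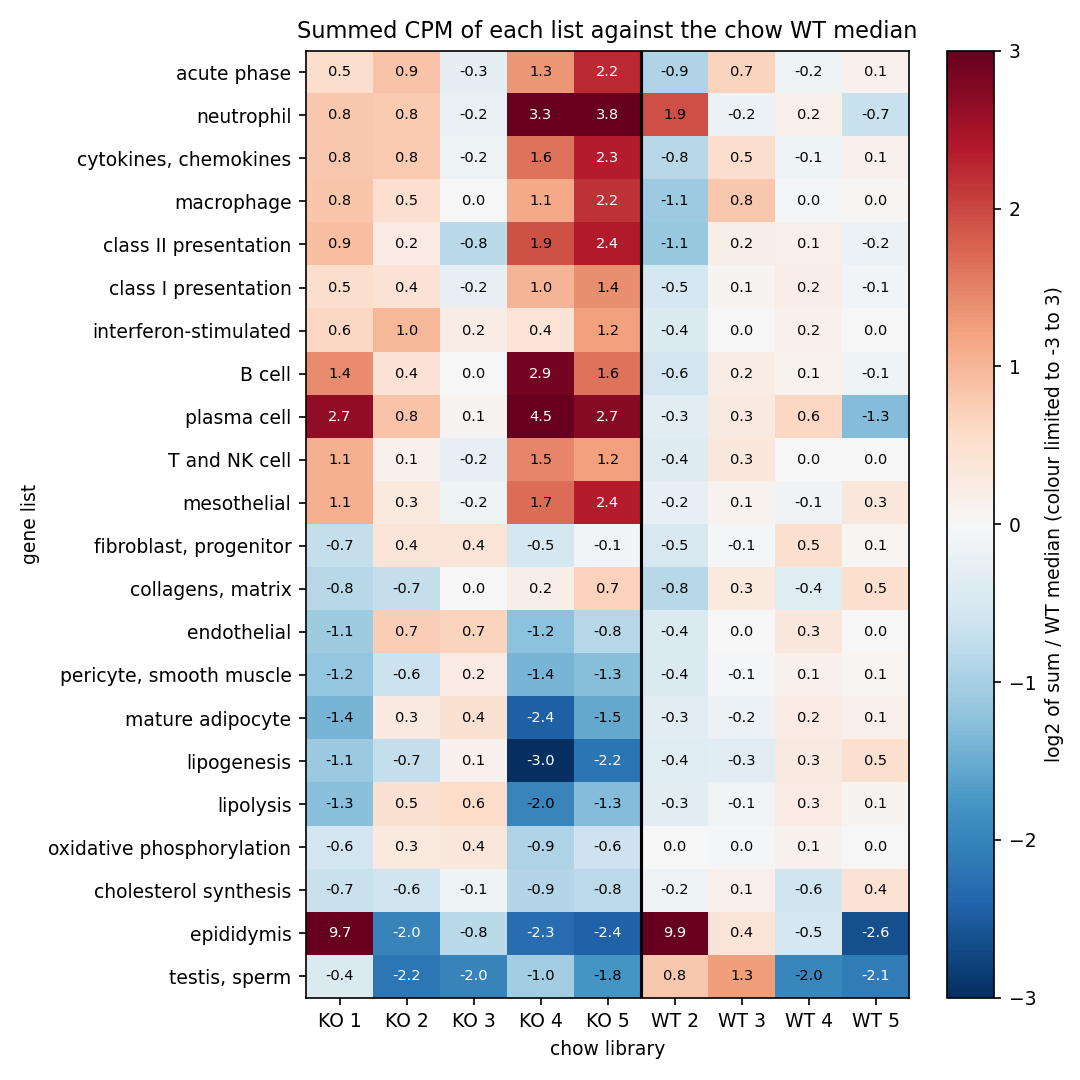
Summed CPM of each of 22 gene lists (rows) in the 9 chow libraries (columns) as log2 of its ratio to the median of the 4 WT libraries, printed in each cell. The B cell, class II and mesothelial rows are above 0 in KO 1, KO 4 and KO 5, the adipocyte, lipogenesis and oxidative phosphorylation rows are below 0 in the same 3 libraries, and the epididymis row stands out in KO 1 and WT 2.

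Some genes of lipid synthesis fell in KO, and most of these calls were lost when KO 4, KO 5 or WT 5 was left out. Fasn (ENSMUSG00000025153, chromosome 11, 120805846 to 120824547, minus strand), fatty acid synthase, was at 1120, 2200, 3570, 278 and 647 CPM in KO 1 to KO 5. WT libraries held 3670, 3350, 4320 and 7200 CPM. KO 3 lay inside the WT range and the other 4 below it. Fasn was 2.96-fold lower (log2 -1.56 ± 0.45, edgeR adjusted p = 0.017), with an adjusted p of 0.068, 0.065 and 0.081 without KO 4, KO 5 and WT 5. Scd2, a fatty acid desaturase, was 2.99-fold lower (edgeR adjusted p = 0.012, and 0.061, 0.05 and 0.055 without KO 4, KO 5 and WT 5). Pgd, an enzyme of the pentose phosphate pathway that supplies NADPH, was 1.78-fold lower (edgeR adjusted p = 0.0058) and called without each single library. Of 26 lipogenesis genes 0 rose and 7 fell, with a median of -0.72, and 4 fell without KO 1 and WT 2. Without KO 4, KO 5 or WT 5 the count was 1, without KO 2 and KO 3 it was 11 and 13, and without KO 4 and KO 5 it was 0. The lipogenesis list summed to 4230 and 7540 CPM in KO 4 and KO 5, 15700 CPM in KO 1, 20900 CPM in KO 2 and 37600 CPM in KO 3, against 26800 to 47600 CPM in WT. The mature adipocyte sum given above was lowest in the same libraries, and its part in these counts was not tested.

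Few adipocyte genes were called, and the KO libraries lay on both sides of WT. Of 29 mature adipocyte genes 1 rose and 3 fell, with a median of -0.63, and the number that fell was 14 without KO 3 and 0 without KO 4, KO 5, WT 3 or WT 5. Among all genes tested with the 9 libraries 8.85% rose and 6.14% fell. Adipoq, adiponectin, was at 1410, 4200, 4660, 467 and 1270 CPM in KO 1 to KO 5 and at 2880 to 3650 CPM in WT. It is shown as the defining adipocyte gene, and it did not pass (edgeR adjusted p = 0.46): KO 2 and KO 3 lay above every WT library and the other 3 below. Lep (ENSMUSG00000059201, chromosome 6, 29060220 to 29073877, plus strand), leptin, the satiety hormone of fat, was at 540, 1190, 2740, 65.4 and 89.3 CPM in KO and at 1490, 4330, 1050 and 6760 CPM in WT. It was 3.65-fold lower (edgeR adjusted p = 0.021, and 0.065, 0.06, 0.055 and 0.14 without KO 4, KO 5, WT 3 and WT 5). Lpl, which frees fatty acids from lipoproteins, was 2.09-fold lower (edgeR adjusted p = 0.039), and Npr3, a natriuretic peptide clearance receptor, 2.53-fold (edgeR adjusted p = 0.033). For both, leaving out KO 1, KO 4, KO 5, WT 3 or WT 5 gave adjusted p-values of 0.053 to 0.13. Within the 4 libraries of mice numbered 450 and above, 21 of the adipocyte genes fell, with a median of -2.33, and within the mice of lower number the median was 0.11. The former fit set KO 4 and KO 5 against WT 4 and WT 5, and called 1356 of all 12918 genes tested lower.

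Lipolysis and sterol genes were called in smaller numbers. Of 24 genes of lipolysis and adrenergic signalling 3 rose and 2 fell, with 0 rising without KO 4, 0 falling without KO 4, KO 5, WT 3 or WT 5, and 4 and 9 falling without KO 2 and KO 3. The counts with all 9 libraries are close to the shares over all genes tested, 8.85% higher and 6.14% lower. Adra2a, an adrenergic receptor that restrains lipolysis, was 3.87-fold higher (edgeR adjusted p = 0.0086), and it was not called without KO 4 (edgeR adjusted p = 0.093). Adora1, an adenosine receptor that also restrains lipolysis, was 1.91-fold lower (edgeR adjusted p = 0.021, and 0.058 to 0.097 without KO 4, KO 5, WT 3 or WT 5). Of 22 cholesterol synthesis genes 0 rose and 6 fell, among them Insig1, a sterol sensor (2.1-fold, edgeR adjusted p = 0.025), and the pathway enzymes Sc5d (2.07-fold, edgeR adjusted p = 0.02) and Lss (1.74-fold, edgeR adjusted p = 0.028). Without KO 4, KO 5 or WT 5 the count was 0, without WT 3 it was 1, and without KO 3 it was 10. Of 39 oxidative phosphorylation genes and 30 fatty acid oxidation genes 0 were called, although KO 4 lay below every WT library in 31 and 25 of them and KO 3 above every WT library in 26 and 21. Without KO 3, 7 oxidative phosphorylation genes and 3 fatty acid oxidation genes were called lower. That refit called 2121 of all 14523 genes tested lower. KO 1 and KO 5 lay below in 35 and 31 of the oxidative phosphorylation genes, and KO 2 above in 28. Over all genes tested, KO 4, KO 1 and KO 5 lay below every WT library in 31.9%, 26.2% and 30.4%. KO 3 and KO 2 lay above in 13.4% and 18.3% of all genes. Kcnk3, a potassium channel that limits thermogenesis in adipocytes, was at 8.72, 14.7, 42.5, 3.85 and 5.78 CPM in KO and at 38.8, 54.1, 32.3 and 62.9 CPM in WT. It was 3.09-fold lower (edgeR adjusted p = 0.0018) and called without each single library.

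Matrix genes changed in both directions. Of 45 collagen and matrix genes 7 rose and 8 fell, with a median of 0.024, and single libraries left out gave 3 (KO 4 or KO 5) to 12 (KO 2) higher and 2 (WT 5) to 11 (KO 3) lower. Fn1, fibronectin, was at 1640, 741, 752, 3520 and 4900 CPM in KO 1 to KO 5 and at 417, 737, 427 and 542 CPM in WT. All 5 KO libraries lay above WT, KO 2 and KO 3 by a narrow margin, and the change was 4.44-fold (edgeR adjusted p = 0.00053). Col14a1, a fibril-associated collagen, was 2.86-fold higher with all 5 KO libraries above WT (edgeR adjusted p = 0.0025). Col24a1, a minor fibrillar collagen, was at 365 CPM in KO 4 and 83 CPM in KO 5 and at 0 to 13.7 CPM in the other 7 libraries (edgeR adjusted p = 0.0051, and 0.089 without KO 4). In the other direction, Nid2, a basement membrane linker, was at 63.3, 104, 159, 43.7 and 69.2 CPM against 109, 248, 198 and 363 CPM in WT 2 to WT 5, 2.58-fold lower (edgeR adjusted p = 0.0024). Col5a3, of the type V collagens, was 2.42-fold lower (edgeR adjusted p = 0.0029), and Pcolce2, which enhances the cutting of collagen precursors, 3.96-fold lower (edgeR adjusted p = 0.0016). In both, KO 3 was the KO library nearest to WT.

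Enzymes that process or cut collagen also changed. Of 18 collagen-processing genes 5 rose and 1 fell, and without KO 4 or KO 5 1 rose, without WT 2 or WT 3 2, and without WT 5 3. Plod2, a lysyl hydroxylase that sets collagen cross-links, was at 18.5, 19.8, 17.4, 79.8 and 63.6 CPM in KO and at 5.91, 15.3, 14.8 and 12.4 CPM in WT. All 5 KO libraries lay above WT, and it was 3.34-fold higher (edgeR adjusted p = 0.00091). Bmp1, the procollagen C-proteinase, was 2.03-fold higher (edgeR adjusted p = 0.011, and 0.096, 0.095 and 0.051 without KO 4, KO 5 and WT 2). Of 21 matrix proteases and inhibitors 2 rose and 1 fell, with 0 (without KO 4) to 6 (without KO 3) rising and 0 (without WT 5) to 5 (without WT 4) falling. Among all genes tested 8.85% rose and 6.14% fell, close to these 9-library counts. Mmp3, stromelysin, was at 113 and 59.7 CPM in KO 4 and KO 5 and at 0.815 to 8.77 CPM elsewhere (11.4-fold, edgeR adjusted p = 0.012), and without KO 4 its adjusted p was 0.11. Adamts5, an aggrecan-cutting protease, was 2.35-fold lower (edgeR adjusted p = 0.0039, and 0.062 without WT 5).

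Some stromal, mesothelial and vascular genes rose. Of 27 fibroblast and progenitor genes 6 rose and 0 fell, and 3 rose without KO 4. Ly6a, a marker of stem and progenitor cells that interferon also induces, was at 220 CPM in KO 3, the lowest KO library, and up to 653 CPM in KO 5, against 167, 205, 170 and 139 CPM in WT. The groups did not overlap, and Ly6a was 2.62-fold higher (edgeR adjusted p = 0.00017) and still called without KO 4 and KO 5 (edgeR adjusted p = 0.027). Sfrp1, a secreted WNT inhibitor, was at 112, 63.3, 39.6, 496 and 433 CPM against 15.8 to 40 CPM in WT, 8.28-fold higher (edgeR adjusted p = 0.00035). Sfrp4, of the same family, was 5.78-fold higher with 5 of 5 above WT (edgeR adjusted p = 0.00091). Of 26 mesothelial genes 4 rose and 1 fell, and 1, 2, 2 and 1 rose without KO 4, KO 5, WT 2 and WT 3, with a summed level of 12200 and 19600 CPM in KO 4 and KO 5, 8040 CPM in KO 1 and 3240 to 4850 CPM in the other 6 libraries. Wt1, a mesothelial transcription factor, was 2.78-fold higher (edgeR adjusted p = 0.012, and 0.15 and 0.052 without KO 4 and WT 3). Of 28 endothelial genes 5 rose and 0 fell, with 2 rising without KO 4 or KO 5 and 3 without WT 2, WT 4 or WT 5. Selp, which captures leukocytes on activated vessel walls, was 3.28-fold higher (edgeR adjusted p = 0.0011). Icam1, an adhesion molecule counted here among the progenitor genes, was 3.04-fold higher (edgeR adjusted p = 0.00069). The endothelial sum was 6020 to 7790 CPM in KO 1, KO 4 and KO 5 and 10500 to 23400 CPM in the other 6. Of 18 pericyte and smooth muscle genes 0 rose and 3 fell, with 0 falling without KO 4, without KO 5, or without KO 1 and WT 2, 1 without KO 1, WT 3 or WT 5, and 6 without KO 3.

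Some targets of the tumour suppressor p53, a protein that published work describes as a binding partner of prolidase, fell. Of 25 tested 1 rose and 7 fell, with a median of -0.11, and 2 fell without KO 4 or KO 5, 4 without WT 2 or WT 3 and 1 without WT 5. Cdkn1a, the cell cycle inhibitor p21, was at 43.8, 40.5, 92.7, 43.3 and 52.7 CPM in KO and at 78.8, 165, 54.5 and 284 CPM in WT. The groups overlapped, with KO 3 above WT 2 and WT 4. It was 2.62-fold lower (edgeR adjusted p = 0.0032), and not called without WT 5 (edgeR adjusted p = 0.074). Zmat3, a p53-induced RNA-binding protein, was 1.44-fold lower (edgeR adjusted p = 0.0055) and called without each single library. Pmaip1, a promoter of cell death, was 2.98-fold higher (edgeR adjusted p = 0.0048). Of 18 genes of EGF receptor signalling, to which extracellular prolidase can bind, 1 rose and 1 fell, Dusp6 (1.68-fold higher, edgeR adjusted p = 0.04) and Hbegf (1.72-fold lower, edgeR adjusted p = 0.032). Both lost their call without KO 4, KO 5, WT 2, WT 3 or WT 5, with adjusted p-values of 0.06 to 0.2. A count of 1 in 18 each way is close to the 8.85% higher and 6.14% lower over all genes tested.

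The genes with the largest falls were carried by 1 or 2 WT libraries. Without KO 1 and WT 2, the list of lowest genes held the sperm genes Ldhc, Smcp, Odf1 and Akap4, which were at 122, 87.4, 61.4 and 49.8 CPM in WT 3, at 0 to 0.173 CPM in WT 4 and WT 5 and at 0 in KO 2 to KO 5. Fold changes against groups at 0 are not given. Another set was shared by WT 3 and WT 5. Tph2, a serotonin-synthesis enzyme of neurons, was at 120 and 88.2 CPM in WT 3 and WT 5 and at 0.69 to 5.22 CPM in the other 7 libraries, a fitted 15.4-fold lower in KO (edgeR adjusted p = 0.0035). Outside these 9 libraries, Tph2 reached 116 CPM in chow HET and was at 74.5 to 224 CPM in HFD KO. Gpr50, an orphan receptor, was at 49.5 and 13.5 CPM in WT 3 and WT 5, 7.83 CPM in WT 2 and 0 to 1.63 CPM elsewhere (edgeR adjusted p = 0.0016). Cck, the gut and brain peptide cholecystokinin, was at 35.8 and 7.74 CPM in WT 3 and WT 5 and at 0 to 0.522 CPM elsewhere (edgeR adjusted p = 0.0077, and 0.076 without WT 3). Otop1, a proton channel, was at 19 and 11.5 CPM in WT 3 and WT 5 and at 0 to 2.28 CPM elsewhere (edgeR adjusted p = 0.0074, and 0.075 without WT 3). At the other end, Muc5b, a mucin, was at 845 CPM in KO 1 and at 0 to 2.61 CPM in the other 8 libraries. It was called with all 9 libraries (edgeR adjusted p = 0.035, and 0.051 to 0.096 without KO 4, WT 3, WT 4 or WT 5) and was not among the genes tested without KO 1 and WT 2.

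In many genes the effect of the knockout on chow differed from that on the high-fat diet. The test of the difference itself called 677 genes with a more positive KO effect on chow (4.66% of 14536) and 243 with a more negative one (1.67%). On HFD alone 5 genes were called (0.0344%), 1 higher and 4 lower, with 1521 at an unadjusted p under 0.05. The chow and HFD groups share no library. Pepd fell on both diets, by 2.23 and 2.03 on the log2 scale, and the difference did not pass (edgeR adjusted p = 0.78). Of the interferon-stimulated genes 30 of 38 differed between diets, all with the higher KO effect on chow, as did 17 of 19 B cell, 10 of 15 class II, 13 of 16 class I and 7 of 33 macrophage genes. For Oas2 the difference was 2.37 on the log2 scale (edgeR adjusted p = 0.00097), with HFD KO libraries at 19 to 46.6 CPM and HFD WT libraries at 21.7 to 34.5 CPM. For Saa3 it was 6.48 (edgeR adjusted p = 0.002), with 12.1 to 97.2 CPM in HFD KO and 17.3 to 86.6 CPM in HFD WT. Fcna was called on both diets, and its difference did not pass (edgeR adjusted p = 0.37). For Fasn the difference was -1.90 (edgeR adjusted p = 0.033), and 3 of 26 lipogenesis genes differed, all with the lower KO effect on chow. Without KO 4 and KO 5 the difference was called in 32 genes, without KO 4 alone in 302, and without every gonadal library of over 1000 CPM of epididymis markers in 248.

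**Figure D5:**
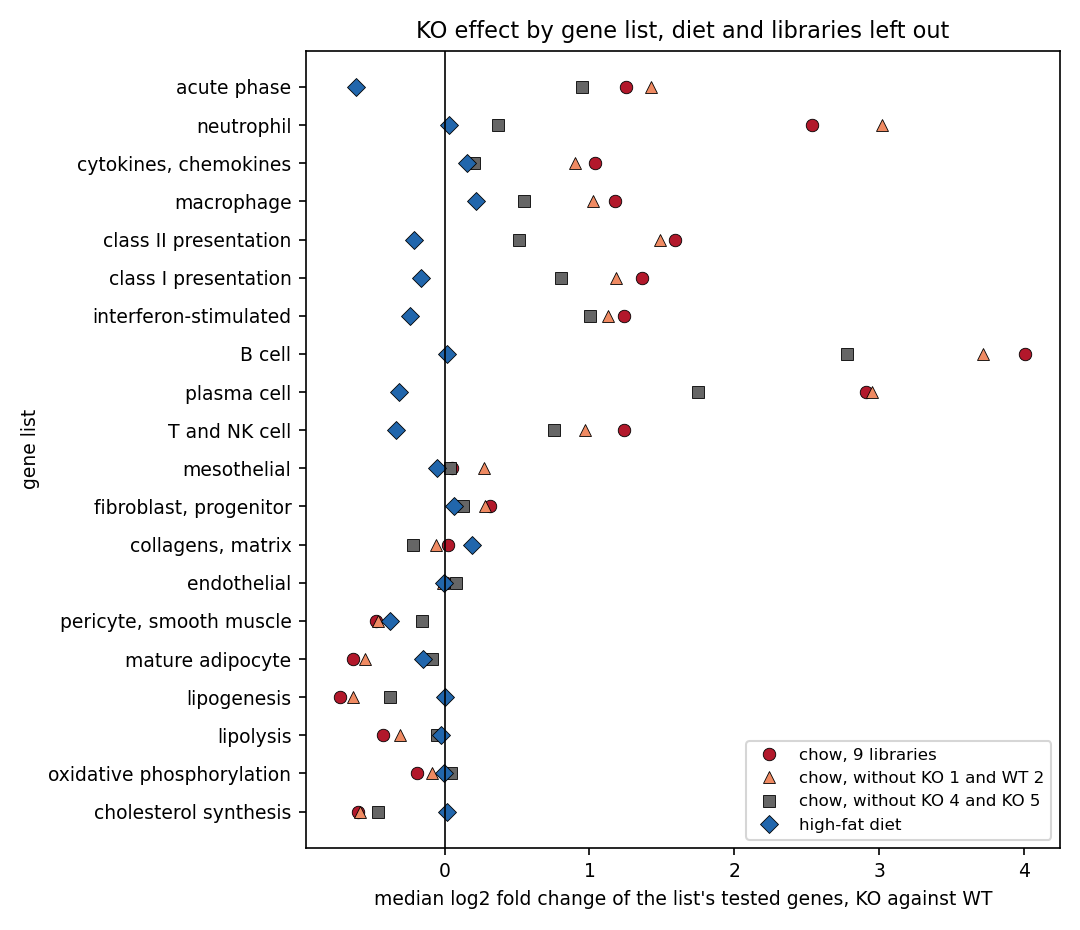
Median log2 fold change, KO against WT, of the tested genes of 20 lists (rows) for chow with all 9 libraries, chow without KO 1 and WT 2, chow without KO 4 and KO 5, and the high-fat diet. B cell genes have the highest chow median (4.01), the interferon-stimulated median is 1.24 with all libraries and 1.00 without KO 4 and KO 5, and the diamonds of the high-fat diet lie near 0 in most rows.

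Between chow HET and WT the same model called 0 genes, with 623 at an unadjusted p under 0.05. Summed interferon-stimulated genes were at 1710 to 6370 CPM in HET (median 2790), 2180 to 3250 CPM in WT and 3360 to 6830 CPM in KO. Summed class II genes were at 1280 to 3910 CPM in HET and 1790 to 4400 CPM in WT, and in KO 1 to KO 5 they were at 7320, 4660, 2250, 14700 and 20400 CPM. The lipogenesis sum was 35800 to 64500 CPM in HET, against 26800 to 47600 CPM in WT, so that KO 1, KO 2, KO 4 and KO 5, but also WT 2 and WT 3, lay below every HET library.

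For 8 of the 9 mice a liver library was also measured, and the mice of KO 2, KO 4 and KO 5 stood apart there too. In liver, Saa1 was at 4410, 58.4, 15400 and 18800 CPM in the mice of KO 2, KO 3, KO 4 and KO 5. The mice of WT 3, WT 4 and WT 5 were at 33.8, 31.6 and 21.6 CPM, and that of WT 2 was at 1310 CPM. In fat, the summed acute-phase level of WT 2 was the lowest of the 9 libraries, at 5870 CPM, while its neutrophil sum of 264 CPM was the highest of WT. That library also held 21700 CPM of epididymis markers, so its levels are not those of fat alone. Liver Lcn2 was at 498, 6.97, 1860 and 1880 CPM in KO and at 105, 4.48, 1.5 and 1.54 CPM in WT. The mouse of KO 3 thus had the lowest acute-phase levels of the KO mice in liver as in fat. Liver Pepd in it was at 0.581 CPM, within the 0.472 to 3.01 CPM of the KO mice and far from the 41.3 to 43.6 CPM of WT. Tissues of one mouse are not independent samples, and no test was made.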

How the data were processed

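Per the labels' protocols, RNA of gonadal adipose tissue and liver (integrity number above 7) was made into stranded mRNA libraries and read as single ends of 50 bases. The submitters' processing notes name STAR 2.5.1b, featureCounts 1.5 and GRCm38.p5. Not given in the sources used here were their settings. The deposited gonadal table gives raw counts (whole numbers with different library totals) for 25759 Ensembl genes. Symbols from the GENCODE M21 annotation matched 25723 of them. The table's 1 unlabelled column was left out.

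Counts of all 45 gonadal libraries (6 groups) were fitted in R 4.3.3 with edgeR 4.0.16 (TMM, its expression filter with a minimum count of 10 and total of 15, quasi-likelihood test, two-sided, Benjamini-Hochberg adjustment, called under 0.05). CPM use TMM-scaled totals. Errors of log2 changes, written SE, are the size of the fitted change divided by the square root of its quasi-likelihood F statistic. Alternatives used DESeq2 1.42.0, limma 3.58.1 voom, other filters and scaling, subsets of groups, single libraries left out, the replicate number as a block and the run of mouse numbers. Fits without KO 4 and KO 5, without libraries rich in epididymis markers, and of DESeq2 on the compared groups were added after seeing the data. The tests were tried on simulated counts.

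The samples, the 47 gene lists and the rule for named genes were chosen with earlier results of these data known: Pepd, Prep, Dpp4 and Fap, the called genes with the largest changes (12, 8 or 5 each way and at least 1 CPM in a group), and up to 3 called members of each list with the smallest adjusted p. Igha, Adipoq and the promoter genes Trim30a, Gbp3, Gbp7 and Isg15 fall outside that rule and were chosen after their values were seen. Same-numbered KO and WT libraries did not deviate together (correlations -0.332 to 0.224), so the numbers do not pair the samples. No pair within a group agreed within sampling noise (16 pairs, ratio of observed to sampling spread at least 2.02). P-values measure the spread between these samples, as nothing states how the animals were bred.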

Additional observations from a re-analysis of the deposited data

Results flagged for a closer look

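Among 328 groups of 4 or 5 libraries examined, 36 held a library far from the others, where chance flags about 1 in 20. In KO 1 the epididymis sum was 19360 CPM and the mammary and salivary gland sum 145 CPM, and Gpx5 was at 447, Muc5b at 845, Dpp4 at 118, Ptpn5 at 19.7, Smcp at 31.3, Odf1 at 21.5, Akap4 at 9.64 and Ldhc at 5.68 CPM. In WT 2 the same sums were 21690 and 258 CPM, with thermogenic genes at 470, neutrophil genes at 264 and antioxidant genes at 12780 CPM in sum. WT 2 also stood apart for Gstm2 (422 CPM), Il33 (16.7 CPM), Col24a1 (6.61 CPM), Muc5b (2.61 CPM) and Cxcl5 (0.87 CPM). WT 3 did for Ldhc (122 CPM), Mmp3 (8.77 CPM) and Gpx5 (1.34 CPM), WT 4 for Gbp3 (56.6 CPM) and the oxidative phosphorylation sum (7980 CPM), and WT 5 for Apoa4 (1.48 CPM).

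KO 3 stood apart from the other 4 KO libraries, for Col5a3 (867 CPM), Pcolce2 (42.2 CPM), Cdkn1a (92.7 CPM), Kcnk3 (42.5 CPM) and the Schwann and nerve sum (498 CPM), and for Mstn (0.489 CPM). KO 4 did for Col24a1 (365 CPM) and the plasma cell sum (24160 CPM), and KO 5 for Cxcr2 (52.2 CPM) and Csf3r (324.3 CPM).

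The KO effect differed between chow and the high-fat diet in 920 genes. As fitted log2 values, which for genes at 0 in a group depend on the prior count, the largest differences toward chow were Gpx5 (15.72), Saa2 (9.48), Saa1 (9.0), Apoa4 (8.89) and Ptpn5 (8.32). The largest in the other direction were Dsg1b (-5.50), Gpr50 (-4.63), Cacng5 (-4.57), Mstn (-4.32) and Tph2 (-4.30). In chow, Gpx5 and Ptpn5 were highest in KO 1, at 447 and 19.7 CPM, and on HFD a WT library held more Gpx5 than KO 1 and Ptpn5 reached 12 CPM in a WT library. Apoa4 reached 1160 CPM in a WT library on HFD. Dsg1b, Gpr50, Cacng5, Mstn and Tph2 were highest in WT 3 and WT 5 among the 9 chow KO and WT libraries.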

How the results depend on the processing

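Of 2180 genes called between chow KO and WT, edgeR called 0 when only those groups were fitted, 0 with the 3 chow groups (2844 at an unadjusted p under 0.05) and 0 within mice numbered under 450. Limma voom with sample weights called 1008 (49.1% of them higher, against 59% of the 2180), DESeq2 on the compared groups 380, an adjusted p under 0.01 left 788, and the fit without KO 4 and KO 5 called 55. Single libraries left out gave 774 to 4210. Without KO 1 and WT 2 the 1589 calls became 284 with voom, 0 with the compared groups alone (1131 unadjusted), 125 with DESeq2 on them, 319 under 0.01, 2955 within mice numbered 450 and above, 1 (Pepd) without KO 4 and KO 5, and 216 to 4014 without single libraries (KO 4 216, WT 3 251, KO 5 337, WT 5 668, WT 4 2398, KO 3 4014). The 920 differences between diets became 220 with the 4 groups compared, 225 under 0.01, 5.0e+02 (rounded) without KO 1 and WT 2, 248 without libraries of over 1000 CPM of epididymis markers, 32 without KO 4 and KO 5, and 302 to 2650 without single libraries (KO 4 302, WT 5 417, KO 5 462, WT 3 6.0e+02 (rounded), WT 4 1406, KO 3 2650). With the replicate number as a block, which does not pair these samples, the counts were 1532, 936 and 495. DESeq2 on all groups, RLE scaling, both filters, the run covariate and chromosome 7 left out kept all 3 counts within 1.5 times. Some of these refits held fewer samples, and the cause of the changed counts was not tested.

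The sign turned in 11 refits of single genes. Dpp4 ranged from -0.96 (without KO 1) to 0.30 (without WT 2) over single libraries left out and was 0.054 without KO 4 and KO 5. Mmp3 went to -0.72 within mice under 450 and to -0.17 without KO 4 and KO 5, Gsr to -0.036 in the former and Bmp1 to -0.028 in the latter. Without KO 1 and WT 2, Ddx4 ranged from -4.86 (also without WT 4) to 0.066 (also without WT 3) over single libraries left out, and without KO 4 and KO 5 Mmp3 went to -0.88, Adra2a to -0.021 and Nfil3 to -0.17. The diet difference of Gpx5 went to -3.05 without libraries rich in epididymis markers. Of 119 genes named with all 9 libraries, 50 kept their side of the threshold without each single library, counting only the refits in which a gene was tested (Cxcr2 and Cxcl5 were not tested in several). At this depth low levels rest on few reads, as for Cck at 0 to 0.522 CPM in 7 of the 9 libraries.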

Other observations

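Further gene groups gave few calls. Of 27 immediate early and heat shock genes 5 rose and 0 fell, with 1 rising without KO 4, 2 without WT 2 and 8 without KO 1 or KO 3. Klf2, a transcription factor of vessels and lymphocytes, was 2.1-fold higher (edgeR adjusted p = 0.012, and 0.14 and 0.059 without KO 4 and WT 2), and Ier3, a stress-induced survival gene, 3.53-fold (edgeR adjusted p = 0.0057, and 0.056 without KO 4). Of 36 genes of WNT, TGF-beta and BMP signalling 6 rose and 3 fell, with 3 rising without KO 4 and 1 (without KO 4, KO 5, WT 3 or WT 5) to 10 (without KO 3) falling. Nkd1, a WNT feedback inhibitor, was at 43.6, 19.1, 44.7, 13.4 and 14 CPM in KO 1 to KO 5 and at 63, 67.1, 34.8 and 113 CPM in WT, 2.54-fold lower (edgeR adjusted p = 0.0027). Of 27 antioxidant genes 1 rose and 2 fell, with 0 (without KO 4 or KO 5) to 7 (without KO 3) falling. Among all genes tested with the 9 libraries 8.85% rose and 6.14% fell. Gstm1, a glutathione transferase, was 2.47-fold lower (edgeR adjusted p = 0.017), with WT 2 at 1080 CPM, and its adjusted p was 0.076 without WT 2, 0.079 without KO 4 and 0.064 without KO 5. Of 28 cell cycle genes 0 were called.

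Hepatocyte genes gave no call among 20 tested, yet their summed level was 4940 and 4800 CPM in KO 2 and KO 3 and 3070 CPM in WT 4, against 713 to 1620 CPM in the other 6 libraries. Star, which starts steroid synthesis, was at 98 and 36.8 CPM in KO 4 and KO 5 and at 5.21 to 17.2 CPM elsewhere, 3.72-fold higher (edgeR adjusted p = 0.0035, and 0.1 without KO 4).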
